A study of Mus musculus with 6 samples.

Results

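The microRNA gene entries of ETX-embryos were taken as every name of the deposited table that starts with Mir and a number, or with Mirlet7, and that stands alone. Of 75 such names, 29 were joined with another gene or with further microRNA genes and were left out, which left 46 entries among 12826 table rows. An ETX-embryo is a structure resembling an early embryo that forms when 3 kinds of mouse cells aggregate: embryonic stem cells (ESC), trophoblast stem cells (TSC) and extraembryonic endoderm (XEN) stem cells. They carried a reporter that drives GFP from T/Brachyury, a gene of the primitive streak. Per the labels' protocols, the TSC part was dissected away and the ESC part was cut along its length. The GFP-positive piece was named prospective posterior and the GFP-negative piece prospective anterior, and no treatment was applied. The 6 libraries are the anterior and posterior pieces of 3 individual structures called A, B and C, with 1 Smart-seq2 library per piece. Values of a domain are given in the order A, B, C throughout. Their age in days and the genetic background of the stem cell lines are not given in the sources used here.

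T itself followed the labels in embryos A and B, at 0 and 0 in anterior and 2.59 and 4.05 in the posterior pieces on the log2(FPKM + 1) scale. It went against them in embryo C, with 5.44 in the library labelled anterior and 0 in the one labelled posterior. The mean posterior minus anterior difference of T was 0.40 ± 5.11 (SD, n = 3; exact two-sided sign-flip permutation p = 1, where 3 pairs allow no p below 0.25). Several results that rest on embryo C are therefore also given without it, but not the test among embryos or the correlations with host genes. Relative to the shallowest library, anterior A, depth was 1.41 and 1.43 for anterior B and C and 2.20, 2.83 and 1.56 for the posterior libraries, so the posterior library was the deeper one of each embryo. Of 6 fixed primitive streak markers, T among them, 0, 2 and 4 were above 0 in anterior and 6, 6 and 5 in posterior pieces. Their mean levels were 0, 0.74 and 1.32 in anterior and 5.30, 4.76 and 4.25 in posterior pieces. As a set they were thus higher in the posterior piece of each embryo, C included. Of the 8 epiblast markers, 5, 6 and 7 were above 0 in anterior and 8, 8 and 8 in posterior pieces. Visceral endoderm markers were above 0 for 5, 5 and 0 of 6 genes in anterior and 4, 6 and 2 in posterior pieces. The 10 parietal endoderm and XEN markers had mean levels of 5.36, 6.11 and 1.84 in anterior and 3.77, 4.02 and 4.97 in posterior pieces. Of 7 trophoblast markers, 5 to 7 were above 0 in each library. The part of depth and of other cell types in the values below was not tested, and in bulk pieces fewer cells of a type and less RNA per cell cannot be told apart.

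A microRNA gene is transcribed as a long primary transcript, often inside the intron or exon of a host gene. The nuclear Microprocessor, made of the RNase Drosha and its partner Dgcr8, cuts out a hairpin, Exportin-5 carries it to the cytoplasm, and Dicer trims it to the mature microRNA that guides an Argonaute protein to target mRNAs through its seed. Early mouse embryos and ESC are known for microRNAs of the miR-290 and miR-302 families and of the miR-17 to miR-92 family, some of which share closely related seeds. They are also known for low mature let-7, whose maturation the protein Lin28 blocks. Smart-seq2 copies polyadenylated RNA with an oligo-dT primer and does not capture mature microRNAs. A value of an entry therefore stands for reads that overlap its annotated hairpin, from a primary transcript, a host transcript or a transcript of near-identical sequence elsewhere. The counting is not stated to use strand, so reads of an entry and of a gene on the opposite strand cannot be told apart.

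The sequences below are the mature products of the entries on which the results turn, with the seed (bases 2 to 8, counted from the 5′ end) in capitals. They come from RefSeq (build GRCm38.p6), in which 34 of the 46 entries were matched. The first 4 belong to the cluster inside Mir17hg, and miR-17-5p and miR-20a-5p share the seed AAAGUGC.
miR-17-5p: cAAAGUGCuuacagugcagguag
miR-20a-5p: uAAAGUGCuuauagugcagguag
miR-18a-5p: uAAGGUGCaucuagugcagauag
miR-19a-3p: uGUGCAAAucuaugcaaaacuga

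The next 3 pairs each share a seed: miR-25-3p and miR-363-3p, miR-181a-5p and miR-181b-5p, and let-7d-5p and let-7i-5p.
miR-25-3p: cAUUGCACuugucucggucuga
miR-363-3p: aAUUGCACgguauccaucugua
miR-181a-5p: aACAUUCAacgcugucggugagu
miR-181b-5p: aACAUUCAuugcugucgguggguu
let-7d-5p: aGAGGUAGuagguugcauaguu
let-7i-5p: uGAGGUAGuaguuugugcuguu

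The last 3 are the products of entries whose hairpin is near-identical to an mRNA, which are described further down.
miR-703: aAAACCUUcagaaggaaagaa
miR-692: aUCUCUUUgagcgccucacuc
miR-682: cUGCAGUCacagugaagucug
In all, 54 mature sequences of the matched entries held 50 distinct seeds, and the 4 shared seeds were the 4 pairs printed above.

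Most entries were at 0 in most libraries. Of the 276 values, 116 were above 0 and 160 were 0. Above 0 in 1 library only were 19 entries, in 2 libraries 7, in 3 libraries 8, in 4 libraries 5, in 5 libraries 3, and in all 6 libraries 4. Over all genes of the table, 57.9% were above 0 in all 6 libraries and 3.51% in 1 library only, so the microRNA entries were more often seen in a single library than the table as a whole. The values above 0 nevertheless ran from 0.50 for Mir133a-1 in anterior C to 14.73 for Mir703 in posterior C, on the log2(FPKM + 1) scale.

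**Figure D1:**
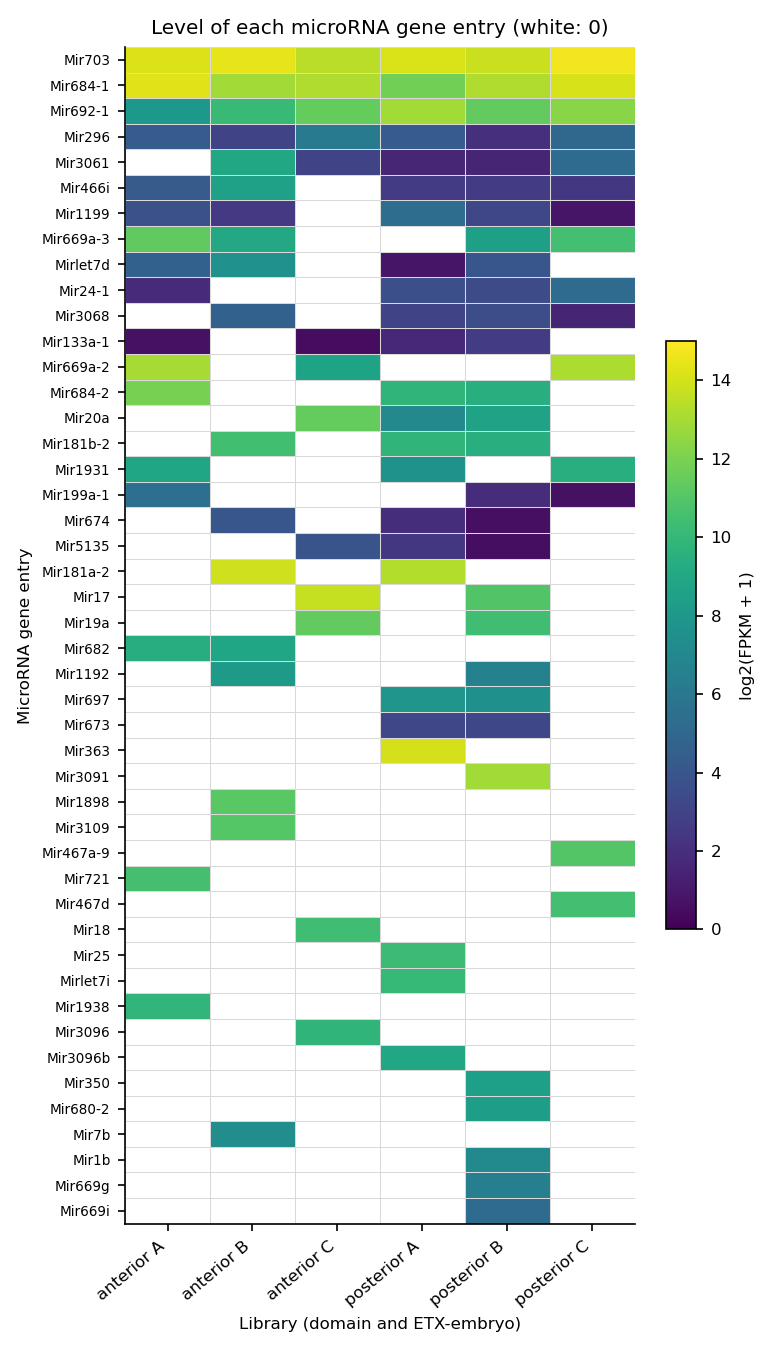
Level of each of the 46 microRNA gene entries (rows) in the 6 libraries (columns), coloured by log2(FPKM + 1), with white for a value of 0. Mir703, Mir684-1, Mir692-1 and Mir296 are above 0 in all 6 libraries, while 19 entries have a value in 1 library only, several of them at a high level.

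The height of a level said little about how many reads lay behind it. FPKM divides by an effective length, which is the number of places a fragment can start, and this becomes very small for hairpins of 68 to 127 annotated bases. FPKM multiplied by relative depth and by an effective length computed from fragments of mean 200 and SD 80 bases, with a shortest fragment of 73 bases, fell on whole numbers. Of 55 values between 0.5 and 11 reads, 47 (85.5%) lay within 0.05 of a whole number, against at most 47.3% with a shortest fragment 1 to 5 bases away on either side. The shortest fragment was read from the values in this way and is not stated by the labels, and the scale it gave corresponds to 3134000 fragments in anterior A and 8852000 in posterior B. The read numbers below are such estimates.

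On this scale 1 read was worth a log2(FPKM + 1) of 5.24 for Mir669i in posterior B (36.8 FPKM, 127 bases) and of 14.04 for Mir363 in posterior A (16890 FPKM, 75 bases). Both entries thus rested on 1 read in 1 library. In 29 entries every value was a whole number of reads: of their 51 values above 0, 21 were 1 read, 18 were 2 to 4 reads and 12 were 5 reads or more. In Mir466i, Mir684-1 and Mir703 only part of the values were whole. In Mir181b-2 each of the 3 values above 0 was worth 1.49 reads at the annotated 89 bases. The same values (1399, 897.7 and 698.2 FPKM in anterior B, posterior A and posterior B) equal the worth of 1 read at 86 bases. In 8 entries (Mir1199, Mir296, Mir3061, Mir3068, Mir5135, Mir673, Mir674 and Mirlet7d) every value was worth less than 1 read. A fraction of a read is not a number of reads, so the reads behind such values are unknown. The cause was not tested. The remaining 5 had no read estimate: Mir133a-1, Mir199a-1, Mir24-1 and Mir3096 are shorter than the shortest fragment, and Mir3096b was not matched in the annotation. The 480.2 FPKM of Mir3096b in posterior A equal the worth of 1 read at 91 bases, but its length is not known here. By counting error alone, 1 read has a 95% Poisson interval of 0.0253 to 5.57 reads and a 0 allows up to 3 reads, so 1 read in a library and 0 in another could not be told apart at this depth. Reads without molecular identifiers are not independent molecules, and these intervals and limits cover counting error only.

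**Figure D2:**
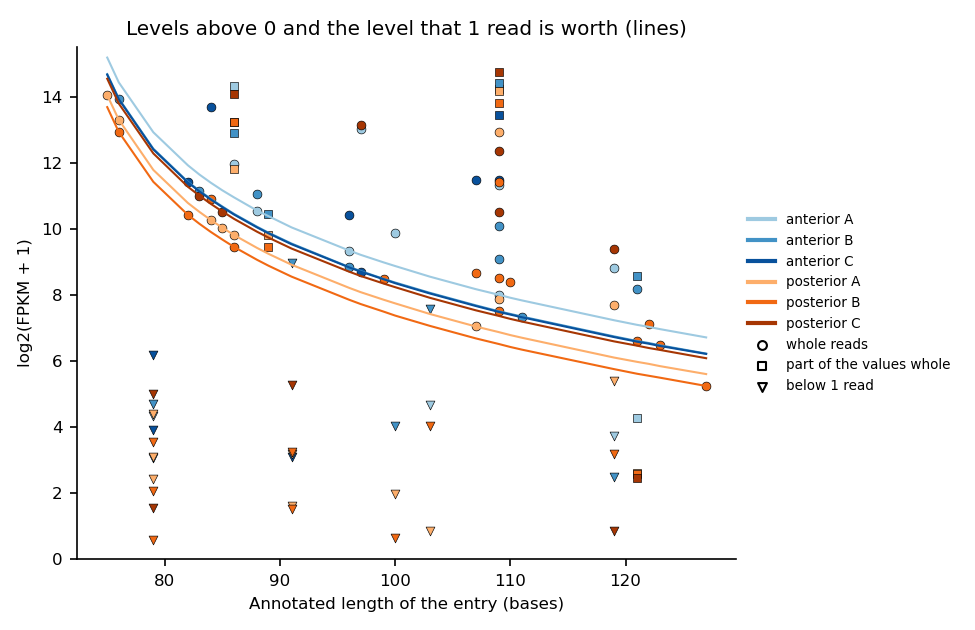
Each point is 1 value above 0 of an entry with a read estimate, by annotated length in bases (horizontal axis) and log2(FPKM + 1) (vertical axis), coloured by library; lines give the level that 1 read is worth in each library. Points on the lines are single reads, from 14.04 at 75 bases (Mir363, posterior A) down to 5.24 at 127 bases (Mir669i, posterior B), and triangles mark the entries whose values all lie under 1 read.

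In the anterior libraries 17, 18 and 13 of the 46 entries were above 0, which is 37.0%, 39.1% and 28.3%. The posterior libraries had 24, 29 and 15 entries above 0, or 52.2%, 63.0% and 32.6%. The posterior count was higher in each embryo, and the posterior and anterior counts overlapped, since posterior C lay below anterior A and B. Counting only values of at least 10 FPKM gave 15, 16 and 11 anterior and 16, 19 and 11 posterior entries, with a tie in embryo C, and the entries with whole reads alone also tied there, at 6 and 6. The same shares over all genes were 77.7%, 86.4% and 72.8% in anterior and 93.7%, 94.7% and 79.99% in posterior pieces. For 24 entries of small nucleolar RNAs, another class of short genes often housed in introns, 4, 9 and 4 were above 0 in anterior and 17, 20 and 7 in posterior pieces. The microRNA entries had a lower share than the small nucleolar RNAs in posterior A and B and a higher one in the other 4 libraries.

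The 2 deepest libraries, posterior A and B, had the most entries above 0. In embryo C, where the depths of 1.43 and 1.56 were close, 6 entries were above 0 in both pieces, 9 in the posterior piece only and 7 in the anterior piece only. In embryo A these counts were 11, 13 and 6, and in embryo B 13, 16 and 5. Of the 46 entries, 24 were above 0 in both domains, 14 in posterior libraries only and 8 in anterior libraries only. Entries above 0 in a single library numbered 2, 3 and 2 in anterior and 4, 6 and 2 in posterior libraries. The counts for 1 domain only thus rest largely on single libraries, and the share of all genes with these patterns was not computed. Depth moved with the posterior domain throughout, and its part in these counts was not tested.

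**Figure D3:**
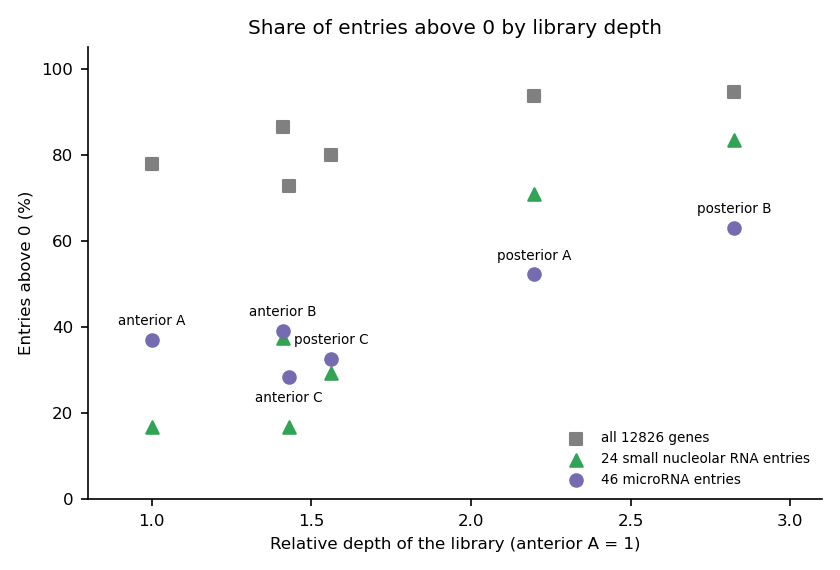
Percent of entries above 0 in each library (vertical axis) against the relative depth of the library, with anterior A set to 1 (horizontal axis), for the 46 microRNA entries (circles, named by library), 24 small nucleolar RNA entries (triangles) and all 12826 genes (squares). Posterior A and B, the 2 deepest libraries, have the highest shares in all 3 sets, with 52.2% and 63.0% of the microRNA entries.

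No entry was above 0 in all 3 libraries of a domain and at 0 in all 3 of the other, a pattern that 1.4% of all genes showed towards the posterior and 0.078% towards the anterior domain. Without embryo A, Mir199a-1 and Mir24-1 were above 0 in the posterior pieces alone, a pattern of 2.87% of all genes, and without embryo B, Mir3068, against 4.43%. In neither case was an entry above 0 in the anterior pieces alone, as 0.288% and 0.343% of all genes were. Without embryo C, Mir20a, Mir5135, Mir673 and Mir697 were above 0 in both posterior and neither anterior library, against 5.01% of all genes, and Mir682 was the other way round, against 0.382%. In 1 entry, Mir24-1, the posterior values all lay above the anterior ones, against 11.4% of all genes, and in none did the anterior values all lie above, against 3.39%.

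Of the 4 entries above 0 in all libraries, 3 are near-identical to the mRNA of another gene. Mir703 (chr5:98475556-98475664 in GRCm38, minus strand, inside an intron of Cfap299 on the other strand) matched the 3′ UTR of Eef1a1, which encodes translation elongation factor 1-alpha, over 109 of its 109 bases at 98.2% identity. Its level was 14.22, 14.42 and 13.45 in anterior and 14.16, 13.82 and 14.73 in posterior pieces, from an estimated 75, 122, 63, 159, 161 and 167 reads. Eef1a1 stood at 10.21, 11.53 and 10.98 in anterior and 11.13, 11.02 and 11.47 in posterior pieces on the same scale. Mir703 had the most reads of all entries with a read estimate, and its domains overlapped.

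Mir684-1 (chr2:80628705-80628790, minus strand, within introns of Dusp19 and Nup35 on the other strand) matched the 3′ UTR of Sumo2, a ubiquitin-like modifier, over 85 of 86 bases at 100% identity. Its level was 14.31, 12.91 and 13.23 in anterior and 11.82, 13.23 and 14.08 in posterior pieces. In anterior A it was above 0 while Dusp19, the gene around it, was at 0, and in anterior C while Nup35 was. Sumo2, deposited in 1 row joined with the name Mir684-1, stood between 8.37 and 8.84 in the 6 libraries. Another copy, Mir684-2 (chr4:11134097-11134182), with 98.8% identity to Sumo2, had 2 reads in anterior A and 1 each in posterior A and B.

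Mir692-1 (chr17:6895229-6895337, minus strand, in no other annotated gene) matched the mRNA of Ftl1, the ferritin light chain that stores iron, at 94.6% identity over an alignment of 111 positions, and the pseudogene Ftl1-ps1 at 96.4%. It had 1, 6 and 16 reads in anterior and 68, 30 and 32 reads in posterior pieces, at levels of 8.0, 10.08 and 11.48 and of 12.94, 11.40 and 12.35. The posterior piece was the higher one in 3 of 3 embryos, by 2.38 in log2 with a standard error of 0.78, but did not pass the threshold in limma (adjusted p = 0.551, unadjusted p = 0.0126), and its highest anterior value, in C, lay above its lowest posterior value, in B. The difference was 1.10 without embryo A, 3.13 without embryo C and 1.45 without anterior A alone. Ftl1 too had its higher value in the posterior piece each time, at 9.07, 10.02 and 9.31 against 10.46, 10.03 and 9.74, a difference of 0.61 with a standard error of 0.56 (limma, adjusted p = 0.76). Mir682 (chr13:75645046-75645141), 99.0% identical to coding sequence of Rpl37a, a ribosomal protein, had 1 read in anterior A and 1 in anterior B and was at 0 elsewhere. In all, 14 entries had a near-identical match elsewhere (at least 90% identity over at least 70% of the entry), and the reads behind them cannot be assigned to the named locus from these values. Without those entries, 9, 13 and 7 of the others were above 0 in anterior and 19, 20 and 8 in posterior pieces.

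Mir296 (chr2:174267047-174267125, minus strand), which lies in the imprinted region of Gnas, was the remaining entry with a value in every library. Its levels were 4.34, 3.05 and 6.17 in anterior and 4.39, 2.06 and 4.99 in posterior pieces. They were worth 0.00115 to 0.0131 of a read, so the reads behind them are unknown. The difference between the domains was -0.71 with a standard error of 0.83 (limma, adjusted p = 0.821). Anterior C was the highest library and posterior B the lowest.

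Reads of the 4 entries of the Mir17hg cluster that stand alone fell in 3 of the 6 libraries, and most of them in anterior C. Mir17hg is the host transcript of a cluster known to promote proliferation, and the entries lie in its exon within chr14:115043671-115044263 on the plus strand. Mir17 had 7 reads in anterior C and 2 in posterior B and was at 0 in the other 4 libraries. Mir18 had 3 reads in anterior C alone. Mir19a had 1 read in anterior C and 1 in posterior B. Mir20a had 14 reads in anterior C, 1 in posterior A and 4 in posterior B. All 4 were thus above 0 in anterior C, and all 4 were at 0 in anterior A, anterior B and posterior C.

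The table holds the host in 1 row, joined with Mir19b-1, which stood at 4.01, 4.98 and 12.24 in anterior and at 9.70, 10.31 and 4.07 in posterior pieces. This row was above 0 in all 6 libraries. The 3 libraries with a high host value were the 3 in which any of the cluster entries standing alone was above 0. The order of the host among them, anterior C, posterior B and posterior A, was also the order of the Mir20a levels of 11.46, 8.67 and 7.04. Across the 6 libraries the host correlated with Mir20a at a Pearson r of 0.99, with Mir17 at 0.81, with Mir19a at 0.80 and with Mir18 at 0.63, over values that share the library, its depth and possibly the same reads. Among the other pairs of an entry and a surrounding gene, r ran from -0.86 (Mir5135 and Plekhg3) to 0.85 (Mir669a-3 and Sfmbt2). The 14 Mir20a reads of anterior C have a 95% Poisson interval of 7.65 to 23.5, and anterior B, a library of nearly the same depth, had 0. Such reads are not independent molecules, and the interval covers counting error only. T was above 0 in the same 3 libraries as the cluster entries, and its part was not tested. Between the domains the host differed by 0.95 with a standard error of 2.18 (limma, adjusted p = 0.917), and the value was -1.42 without embryo A, -1.24 without embryo B and 5.51 without embryo C, whose labels T does not follow.

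Its relatives were sparse. Mir25 lies in an exon of Mcm7, the replication helicase subunit gene (chr5:138165321-138165404), and Mir363 on the X chromosome (chrX:52741693-52741767). They share a seed with each other, which is not that of miR-17-5p. Each had 1 read, in posterior A, and their levels of 10.26 and 14.04 differ only through length. The host Mcm7 was between 3.67 and 5.41 in all 6 libraries. The joined row of Kis2 and Mir106a, from the same X-linked cluster as Mir363, was at 1.18 in posterior A and at 0 in the other libraries. The joined row of the 5 genes of the miR-302 and miR-367 cluster was at 2.36 in posterior A and at 0 in the others, and genes of the miR-290 cluster were not analysed here.

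The 6 entries inside Sfmbt2, a Polycomb-group gene that is imprinted in mouse, belong to a large repetitive microRNA cluster, and each has 6 to 17 near-identical matches elsewhere. Mir669a-2 (chr2:10510164-10510260) had 14, 0 and 1 reads in anterior and 0, 0 and 24 in posterior pieces. Mir669a-3 (chr2:10474433-10474541) had 10, 3 and 0 reads in anterior and 0, 4 and 9 in posterior pieces. Both were highest in anterior A and posterior C, which come from different embryos and different domains. Mir467a-9 and Mir467d each had 1 read in posterior C, and Mir669g and Mir669i had 2 reads and 1 read in posterior B.

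Sfmbt2 itself was above 0 in all libraries, at 5.19, 6.5 and 4.09 in anterior and 3.41, 5.37 and 5.76 in posterior pieces. Posterior A, the lowest for the host, was the library in which all 6 entries were at 0. The host was lower in anterior A than in anterior B, while Mir669a-2 had 14 reads in anterior A and 0 in anterior B. The host's difference between the domains was -0.41 with a standard error of 0.88 (limma, adjusted p = 0.91), and it was 0.27 without embryo A. Mir466i, a related entry in an intron of Cdk13 on the other strand, was worth 3.96 reads in anterior B, at most 0.136 in 4 libraries and 0 in anterior C.

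**Figure D4:**
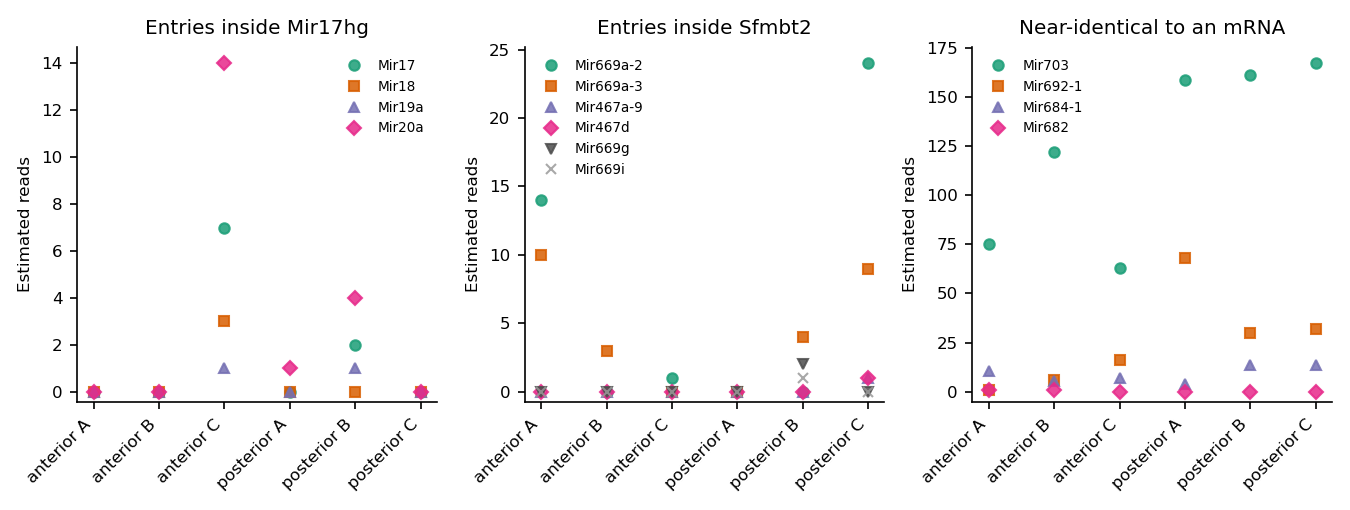
Estimated reads of entries in each of the 6 libraries (1 point per entry and library) for the 4 entries inside Mir17hg (left), 6 entries inside Sfmbt2 (middle) and 4 entries near-identical to an mRNA (right), with a separate vertical scale in each panel. Reads of the Mir17hg entries concentrate in anterior C (up to 14, Mir20a), those of Sfmbt2 in anterior A and posterior C (up to 24, Mir669a-2), and Mir703 has 63 to 167 reads in every library.

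The miR-181 genes on chromosome 2, within Nr6a1 on the opposite strand, rested on few reads. Mir181a-2 (chr2:38852735-38852810) had 1 read in anterior B and 1 in posterior A, which gave levels of 13.94 and 13.30, among the highest of the table's microRNA entries. Its neighbour Mir181b-2 (chr2:38853830-38853918) stood at 10.45, 9.81 and 9.45 in anterior B, posterior A and posterior B. Each value was worth 1.49 reads at the annotated 89 bases and equalled the worth of 1 read at 86 bases. Nr6a1, an orphan nuclear receptor gene, was above 0 in all 6 libraries, between 2.69 and 6.25. The domains overlapped for both entries, with differences of -0.21 and 2.94 and standard errors of 3.69 and 1.75 (limma, adjusted p = 0.992 and 0.662).

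The let-7 entries were Mirlet7d and Mirlet7i. Mirlet7d (chr13:48536012-48536114, in an exon of the non-coding gene 6720427I07Rik) was at 4.65, 7.58 and 0 in anterior and at 0.85, 4.02 and 0 in posterior pieces. None of these values was worth more than 0.715 of a read, so the reads behind them are unknown. Both pieces of embryo C were at 0, and the anterior piece was higher in embryos A and B. Its difference of -2.45 with a standard error of 1.09 did not pass the threshold (limma, adjusted p = 0.617). Mirlet7i (chr10:122985640-122985724) had 1 read, in posterior A.

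Mir24-1 (chr13:63301208-63301275, in an exon of 2010111I01Rik), a microRNA gene expressed in many tissues, was the only entry whose domains did not overlap. Its levels were 1.83, 0 and 0 in anterior and 3.64, 3.44 and 5.27 in posterior pieces. The difference was 3.51 with a standard error of 1.06 and in the same direction in 3 of 3 embryos, yet the adjusted p was 0.542 (limma, unadjusted p = 0.00854). Without embryo C the difference was 2.62. With 68 annotated bases Mir24-1 has no read estimate, so the reads behind it are unknown. Fancc, a DNA repair gene on the opposite strand around it, was at 0.30, 0 and 0 and at 2.56, 0.65 and 0, so that posterior C had the highest Mir24-1 and no Fancc.

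Mir673 lies in the imprinted Dlk1-Dio3 region on chromosome 12 (chr12:109571990-109572080), next to the non-coding RNA gene Meg3. No anterior library had a value above 0, and the posterior ones had 3.19, 3.25 and 0, worth at most 0.0229 of a read. Meg3 was at 0.20, 0 and 0 in anterior and 8.37, 5.66 and 4.87 in posterior pieces, and the joined row with Mirg, the host of further microRNAs of that region, was at 0, 0 and 0 and at 5.21, 1.86 and 0. Of these 3 rows only Meg3 had its posterior values all above its anterior ones, as 11.4% of all genes had. Mir673 and the Mirg row were at 0 in posterior C. The posterior library was the deeper one of each embryo, and the part of depth was not tested. The Mir673 difference was 2.15 with a standard error of 0.98 (limma, adjusted p = 0.617).

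The muscle-type entries Mir1b and Mir133a-1 both lie within Mib1 on chromosome 18. Mir1b is on the strand of Mib1, and Mir133a-1 is on the opposite strand, inside Mir133a-1hg. Mir1b had 3 reads in posterior B and was at 0 elsewhere. Mir133a-1, too short for a read estimate, was at 0.67, 0 and 0.50 in anterior and 1.71, 2.64 and 0 in posterior pieces. Mib1 itself, a ubiquitin ligase gene of Notch signalling, was at 4.26, 2.71 and 1.80 and at 2.39, 3.07 and 0.11.

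Mir1931, in an intron of Cdk17, a kinase gene, had 3, 0 and 0 reads in anterior and 3, 0 and 7 in posterior pieces. A further 6 entries with whole reads had a value in 1 library each. Mir1898, in an intron of Zfr, and Mir7b, in no other gene, had 1 read in anterior B, and Mir721, in an intron of Cux1, had 1 read in anterior A. Mir1938, within Ifrd1, had 2 reads in anterior A, and Mir350, in an intron of Cep170, had 2 reads in posterior B. Mir680-2, with 97 near-identical matches elsewhere, was worth 3.96 reads in posterior B. Of the entries without a read estimate, Mir3096, in an intron of AI506816, was at 9.83 in anterior C alone and Mir3096b at 8.91 in posterior A alone. Mir199a-1, within Dnm2 on the other strand, was at 5.45, 0 and 0 in anterior and 0, 1.89 and 0.70 in posterior pieces.

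The other entries worth less than 1 read were spread over more libraries. Mir3061, in an exon of the phosphatase gene Ppp2ca (chr11:52126746-52126836), was above 0 in 5 libraries and highest at 8.96 in anterior B, which was worth 0.665 of a read. Mir3068, in an exon of Alkbh1, was at 0, 4.68 and 0 in anterior and 3.09, 3.54 and 1.55 in posterior pieces. Mir5135 was at 3.90 in anterior C, 2.42 in posterior A and 0.57 in posterior B. Mir674 was at 4.02 in anterior B, 1.96 in posterior A and 0.63 in posterior B. The 8 entries of this kind were above 0 in a median of 4 libraries, against 1 library for the 29 entries with whole reads.

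By annotation, 24 entries lay in an intron of another gene, 13 overlapped an exon, 8 overlapped no other gene and 1 was not matched. Of the intronic entries, 17 had a host on their own strand and 7 only a gene on the opposite strand. For 31 entries at least 1 surrounding gene was in the table, 22 such genes in all. A host was at 0 while its entry was above 0 in 5 instances: Cdk17 with 3 reads of Mir1931 in anterior A, Fancc with Mir24-1, Plekhg3 with Mir5135, and Dusp19 and Nup35 with Mir684-1. Elsewhere the host was above 0 wherever its entry was. The reverse was the common case: Rps21, a ribosomal protein gene, was between 7.74 and 8.40 in every library while Mir3091 in its intron had 1 read, in posterior B. Anxa2, a membrane-binding protein gene, was between 6.37 and 8.15, with 2 reads of Mir3109 in anterior B alone.

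One test over all entries asked which differ between the posterior and the anterior piece. No entry passed an adjusted p of 0.05 in limma with embryo as a block, and neither did any of the 10914 genes tested (0% called in either direction); the smallest adjusted p was 0.52 among entries and 0.211 among all genes. At an unadjusted p under 0.05, 3 of 46 entries were higher in the posterior domain (Mir697, Mir24-1 and Mir692-1) and 1 in the anterior domain (Mir682), against 7.24% and 0.788% of all genes. The split over all genes depended on scaling. After quantile normalization 3 and 2 entries were higher in the posterior and the anterior domain, against 4.83% and 2.53% of all genes (527 and 276, where the deposited values gave 790 and 86). After each library was centred on its median, the entries again numbered 3 and 2, against 5.03% and 1.88% (549 and 205 genes). The mean was higher in the posterior domain for 24 of 46 entries, against 64.9% of all genes, and the median difference was 0.63 over the entries and 0.43 over all genes. The median over the entries was 0 without embryo A, 0 without embryo B and 0.49 without embryo C, and 0.11 after quantile normalization and 0.32 after median centring. In 3 of 3 embryos the posterior library was higher for 3 entries (Mir24-1, Mir692-1 and Mir1199), against 21.5% of all genes, and the anterior library for none, against 8.25%. All 46 entries had a mean of at least 1 FPKM and were tested; in the entries with whole reads, a single read in 1 library is enough to pass that filter.

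Mir697 and Mir682 had the smallest p-values among entries other than those of the rule for named genes and were chosen after their values were seen. Mir697, in an intron of the splicing factor gene Sf3a3 (chr4:124731694-124731802), had 2 reads in posterior A and 2 in posterior B and was at 0 in the other 4 libraries, a difference of 5.12 with a standard error of 1.51 (limma, adjusted p = 0.523). Mir682 differed by -6.06 with a standard error of 1.67 (limma, adjusted p = 0.52) on 1 read each in anterior A and B. Both were at 0 in both pieces of embryo C. Mir1199 (chr8:84011515-84011633) was at 3.73, 2.48 and 0 in anterior and 5.39, 3.18 and 0.84 in posterior pieces, always worth less than 1 read, with a difference of 1.07 and a standard error of 0.96 (limma, adjusted p = 0.759). The median standard error was 1.65 over the entries and 0.96 over all genes. Without embryo C, 3 entries were higher in the posterior and 4 in the anterior domain at an unadjusted p under 0.05, against 8.23% and 1.28% of all genes, and no gene passed the adjusted threshold.

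Another test asked which entries differ among the 3 embryos. In limma's F test, 8 of 46 entries had an unadjusted p under 0.05, against 2.77% of all genes, and no gene passed the adjusted threshold (0% called). At this depth 1 read and 0 could not be told apart, so no conclusion is drawn from the counts of entries. The count of entries was 23 without a filter on low values and 18 after quantile normalization, and in each case Rbp4, Snora31 and Snord8, 3 genes outside the microRNA entries, passed the adjusted threshold. The smallest values belonged to Mir1192, Mir684-2, Mir181b-2 and Mirlet7d. Mir1192, in an intron of Klf9, a transcription factor gene (chr19:23149431-23149551), had 3 reads in anterior B and 2 in posterior B and was at 0 in both other embryos (limma, adjusted p = 0.361). Mir684-2 had 2 reads in anterior A and 1 each in posterior A and B, and was at 0 in both pieces of embryo C (limma, adjusted p = 0.996). Mir181b-2 and Mirlet7d were at 0 in both pieces of embryo C too. Their values above 0 were worth 1.49 reads each and at most 0.715 of a read. Embryo C, whose anterior library had the fewest genes above 0 and whose posterior library had the fewest among the posterior ones, held 24 entries at 0 in both pieces, against 16 in embryo A and 12 in embryo B.

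The genes that make and use microRNAs were mostly in the fit, 30 of 31 genes described here (Ago4 was not analysed here). Argonaute genes 1 to 3 stand under the older names Eif2c1, Eif2c2 and Eif2c3, and Dgcr8, Ddx5, Tnrc6b and Hnrnpa1 stand in rows joined with another name. No listed gene passed the adjusted threshold in limma (0% called over all genes), and 1, Lin28a, was higher in the posterior domain at an unadjusted p under 0.05. The posterior mean was higher for 22 of 30, against 64.9% of all genes, with a median difference of 0.37 against 0.43 over all genes. With the libraries quantile-normalized, the median over all genes went from 0.43 to -0.03 and the count was 15 of 30. In 3 of 3 embryos the posterior library was higher for 8 of 30 and the anterior for 1, Dgcr8, against 21.5% and 8.25% of all genes.

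Among the genes of nuclear processing and export, Drosha was at 1.44, 4.83 and 3.1 in anterior and 2.93, 3.52 and 3.66 in posterior pieces, with overlap. The joined Dgcr8 row averaged 4.77 ± 0.27 (SD, n = 3) in anterior and 4.10 ± 0.72 in the posterior domain, a difference of -0.67 with a standard error of 0.82. Xpo5, which encodes Exportin-5, averaged 1.71 ± 0.52 and 2.38 ± 0.36, and the difference of 0.67 became -0.05 after quantile normalization. Ran, the GTPase that powers nuclear export, averaged 7.31 ± 1.04 and 8.37 ± 0.33, and its posterior library was higher in 3 of 3 embryos. None of these 4 differences passed the threshold in limma (adjusted p of 0.958, 0.827, 0.855 and 0.658).

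Among cytoplasmic genes, Dicer1 was at 4.40, 3.32 and 0.88 in anterior and 3.67, 3.4 and 3.36 in posterior pieces, with anterior C the lowest. Its RNA-binding partner Tarbp2 averaged 1.60 ± 2.0 and 4.18 ± 1.37 (SD, n = 3), and Prkra, another partner, 2.23 ± 2.58 and 3.81 ± 0.22. The Argonaute genes Ago1 and Ago2 differed by 1.57 and 0.01 with standard errors of 0.96 and 0.91. Zcchc11, a uridylyl transferase that acts with Lin28 on let-7 precursors, differed by -0.89 with a standard error of 0.79. The adjusted p of these genes in limma lay between 0.624 and 0.996.

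The list also holds regulators and targets of let-7. Lin28a, which blocks let-7 maturation, was at 1.23, 5.69 and 6.12 in anterior and at 7.46, 6.57 and 7.92 in posterior pieces. Every posterior value lay above every anterior one, and anterior A was far below the rest. The difference was 2.97 with a standard error of 1.02 (limma, adjusted p = 0.566, unadjusted p = 0.0162), in a design in which 11.4% of all genes were separated in this direction. It was 1.34 without embryo A, 3.56 without embryo C and 1.42 without anterior A alone. Its paralogue Lin28b averaged 1.43 ± 1.42 and 3.19 ± 0.33 (SD, n = 3), a difference of 1.77 with a standard error of 1.05 (limma, adjusted p = 0.661). Trim71, a let-7 target of pluripotent cells, averaged 6.26 ± 1.08 and 7.25 ± 0.60, a difference of 0.99 with a standard error of 0.76 (limma, adjusted p = 0.719). The mean of the epiblast markers, which was 1.17, 2.25 and 3.73 in anterior and 5.32, 4.18 and 4.71 in posterior pieces, moved with Lin28a, and its part was not tested.

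**Figure D5:**
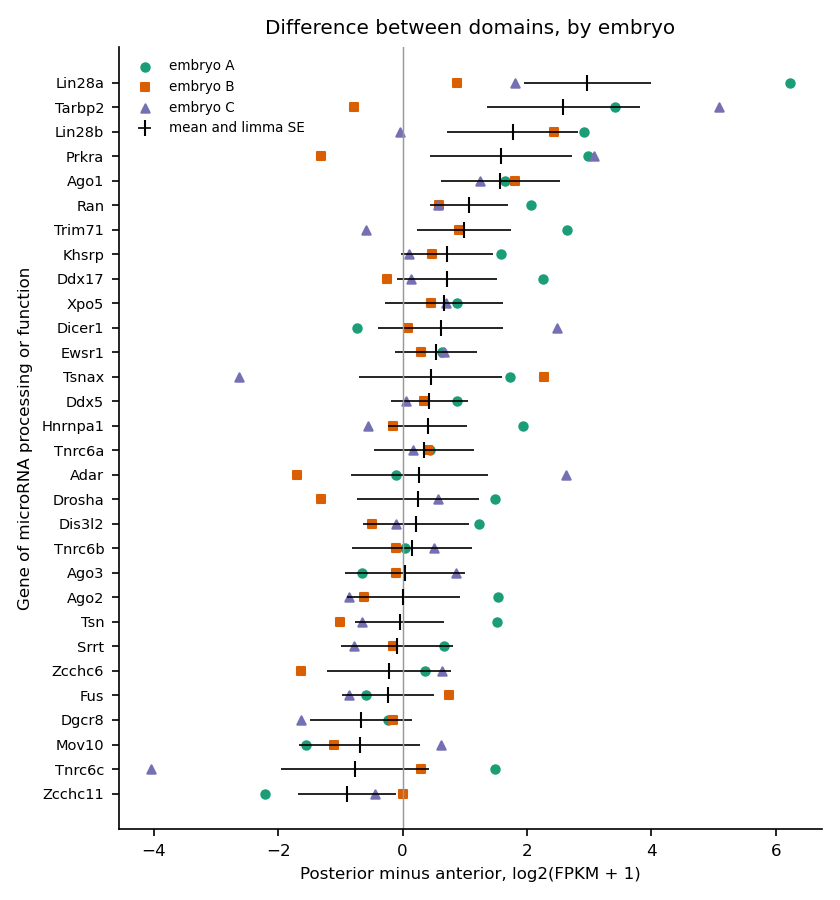
Posterior minus anterior difference in log2(FPKM + 1) for the 30 genes of microRNA processing and function in the fit, with 1 point per ETX-embryo and a bar for the mean with its limma standard error. Lin28a has a mean difference of 2.97, which is 1.34 without embryo A, and all 3 embryos lie above 0 for 8 genes and below 0 for Dgcr8.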

How the data were processed

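The authors deposited 1 table of log2(FPKM + 1) values, where FPKM counts fragments relative to transcript length and to the library's mapped total; back-transformed values show the scale. The libraries were made with Smart-seq2 and 18 preamplification cycles and mapped with Ensembl 38.77 as reference, and HTSeq-count is named for the counting, per the labels' protocols. TopHat2 2.0.4 and Cufflinks 2.0.2 with build mm10 stand in the submitters' processing notes. The sources used here do not say which tool gave the deposited values. The members and lists were chosen with earlier results of these data known.

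Relative depth came from steps of low FPKM values, where 12 of 15 pairs of libraries fitted 1 solution. Coordinates and overlaps came from GENCODE M21 (GRCm38, the mm10 build), which matched 45 entries. Near-identical sequences were searched with BLAST 2.17.0. Differences were fitted with limma 3.58.1 in R 4.3.3, with a variance trend, embryo as a block and 10914 genes averaging 1 FPKM or more. Tests were two-sided with Benjamini-Hochberg adjustment over all genes and a threshold of 0.05, and the scripts were tested on simulated data. Adding 1 FPKM before the logarithm makes differences of low genes smaller than their fold change. Both pieces of an embryo come from the same structure; deviations of the pieces from their domain means correlated at -0.07, 0.04 and -0.03 in A, B and C. Where a fit leaves out a library of an embryo, its spread is shared over genes.

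Named entries were those above 0 in all libraries, those changed the same way in 3 embryos, the 5 with the highest single values, the 4 with the smallest p among embryos, and entries of families known from early embryos, with their hosts. Of the machinery list, 1 gene is not reported here. Machinery genes named were 9 core genes and the 4 others with the smallest p. Alternatives were another pseudocount, filter, normalization or variance model, no block, and leaving out each embryo or anterior A. Flags for single outlying libraries need groups of at least 4 and were not applied.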

Additional observations from a re-analysis of the deposited data

How the results depend on the processing

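No gene or microRNA entry passed the adjusted threshold between the domains under any of the 11 alternatives, and without the replicate block the count was also 0, with 3 entries higher in the posterior and 1 in the anterior domain at an unadjusted p under 0.05, as with it. These 2 counts were 6 and 2 with no filter on low values, where more genes enter the variance model. The anterior count was 2 after quantile normalization, after median centring and with no trend, and 0 where anterior A alone was left out with no block. Leaving out 1 embryo gave 0 to 5 posterior and 0 to 4 anterior entries, both lowest without embryo B. Among embryos, 3 genes passed with no filter and 3 after quantile normalization, and 23 and 18 entries reached an unadjusted p under 0.05. Entries above 0 in 1 domain alone numbered 1 to 4 (posterior) and 0 to 1 (anterior) when 1 embryo was left out, against 0 and 0 with all 3. With at least 10 FPKM, posterior B had 19 entries. In 2 alternatives chosen after seeing the data, entries without a near-identical match numbered 9, 13 and 7 in anterior and 19, 20 and 8 in posterior pieces, and entries with whole reads 8, 8 and 6 and 9, 14 and 6. The cause was not tested.

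Of 284 recomputed differences of 26 named rows, 264 kept their sign and 20, in 9 rows, did not; none passed the threshold. With 1 embryo left out, differences ranged from -1.08 to 0.58 for Mir684-1, -0.33 to 0.61 for Mir703, -1.42 to 5.51 for the Mir17hg row, -1.45 to 0.27 for Sfmbt2, -0.38 to 1.03 for Drosha, -0.33 to 1.28 for Dicer1, -0.75 to 0.46 for Ago2 and -1.43 to 3.32 for T. Smaller with the same sign were Mir692-1 (1.10), Lin28a (1.34), Trim71 (0.16) and Ran (0.57) without embryo A, and Tarbp2 (1.32) and Prkra (0.83) without embryo C. Quantile normalization gave -0.39 for Drosha, -0.05 for Xpo5 and -0.35 for Ago2, and median centring -0.11 for Mir703, -0.07 for Drosha and -0.30 for Ago2. Leaving out anterior A alone, with no block, gave -0.58 for the Mir17hg row, -0.60 for Drosha, -0.51 for Ago2 and -0.51 for T. Depth limits the entries: 36 of the 51 whole-read values above 0 were at most 3 reads, the number that a value of 0 allows.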

Other observations

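The joined rows left out of the 46 entries, which carry the name of a host or of several microRNA genes, were above 0 more often than the entries that stand alone. Of 29 such rows, 22, 24 and 21 were above 0 in anterior and 26, 27 and 24 in posterior pieces. Over all genes the shares above 0 were 77.7%, 86.4% and 72.8% in anterior and 93.7%, 94.7% and 79.99% in posterior pieces. Most of the joined rows hold a protein-coding gene, so their value stands for the whole joined locus. Mir678 joined with Prmt2, an arginine methyltransferase gene, was at 0.45, 9.56 and 12.31 in anterior and 2.46, 2.22 and 11.50 in posterior pieces, so both pieces of embryo C were high. The joined row of Mir297a-3, Mir297a-4 and Mir297b was at 10.43 in anterior C and at 0 in the other libraries. Mir21, joined with its host Vmp1, was at 4.53, 5.02 and 0.72 in anterior and 5.79, 5.74 and 4.41 in posterior pieces. These rows were chosen after their values were seen.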
